A study of Ictidomys tridecemlineatus with 31 samples.

Results

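The tubule injury and repair markers described here are 10 genes whose RNA is used to recognize damaged, repairing, or failed-repair tubule cells in mammalian kidneys: Havcr1, Clu, Spp1, Lcn2, Vcam1, Dcdc2, Sema5a, Sox9, Krt18, and Krt8. They were taken by symbol, case ignored, from an RNA-Seq table of kidneys of the 13-lined ground squirrel (Ictidomys tridecemlineatus), a hibernator, and all 10 were found among its 12863 genes. The table gives them as gene8795 (Havcr1), gene19692 (Clu), gene24515 (Spp1), gene4862 (Lcn2), gene22140 (Vcam1), gene19393 (Dcdc2), gene17961 (Sema5a), gene18434 (Sox9), gene8480 (Krt18), and gene8479 (Krt8). Krt8 and Krt18 lie next to each other in the RefSeq annotation of the species. Each of the 31 samples is a fragment of the kidney of 1 untreated captive animal, whose body temperature (Tb) decided its group.

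Of the 6 physiological states, 2 were homeothermic and 4 belonged to hibernation. Summer active animals (SA, n = 5) were taken in August while they fattened. Animals of the spring dark state (SpD, n = 5) were warm after their last torpor bout but still housed in the hibernaculum. Interbout aroused (IBA, n = 5) animals had rewarmed from torpor within the last hours, entrance (Ent, n = 5) animals were cooling into the next bout, early arousing (EAr, n = 5) animals had just begun to rewarm and were still cold, and later arousing (LAr, n = 6) animals were midway through rewarming. Both sexes were in every state (17 females and 14 males in all), and ages are not given in the sources used here. The 9 animals of experiment 1 (3 each of IBA, Ent, and SpD) and the 22 of experiment 2 were sequenced with different library kits, so SA, EAr, and LAr came from experiment 2 alone.

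Tubule cells that survive an ischemic or toxic insult lose part of their differentiated state, switch on a set of injury genes, and then either redifferentiate or remain in a failed-repair state. Havcr1 (KIM-1) and Lcn2 (NGAL) are the best known tubular injury proteins because they reach the urine, whereas Clu, Spp1, and the keratins Krt8 and Krt18 rise in injured tubule epithelium more broadly. Sox9 is a transcription factor switched on in tubule cells that take part in repair, and Vcam1, Dcdc2, and Sema5a are used to mark proximal tubule cells that failed to repair. Hibernators rewarm from torpor many times in a season, and the study asked how their kidneys pass through these cycles without damage.

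The unit throughout is the authors' batch-corrected rlog value, which is on a log2 scale, so that a difference of 1 is 2-fold. The depth of the libraries is unknown, because the table holds no counts, and levels of different genes cannot be ranked on this scale. The median over genes lay between 9.74 and 9.88 in each animal. The tests used the 29 animals kept by the authors for their differential expression (DE) analysis, that is, all animals of the table but K113 (LAr) and K137 (SA). The paper also sequenced a further SA animal, which is not in the table. The authors excluded it after finding raised immune and fibrosis genes and a record of abnormal kidneys at dissection. The markers of that kidney are therefore not described here. K130 (SpD) also stood apart from its group and is in the 29. In K113, K137, and K130, 20, 19, and 18 of the 20 proximal tubule genes were below the range of their group, and the mean of 14 medulla and collecting duct genes was 12.38, 12.65, and 12.62, above every other animal of the table. These 14 genes did not move as one, since 9, 9, and 11 were above the range of the group and 5, 5, and 2 below it. A q value is the p-value of limma after Benjamini-Hochberg adjustment over all 12863 genes, DE means q under 0.001, and results at q under 0.05 are given as a second, weaker level. In a bulk sample, fewer cells of a type and less RNA per cell cannot be told apart.

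Across the 6 states, Krt8 (q = 0.000302) and Havcr1 (q = 0.000537) were DE, and 8 of the 10 markers passed q under 0.05, the exceptions being Spp1 (q = 0.0502) and Lcn2 (q = 0.225). Of all genes, 9.34% were DE across states and 46.1% passed q under 0.05. The calls of Havcr1 are not independent of the expression filter of the table, as described below. The mean was highest in IBA for Havcr1, Clu, Spp1, Lcn2, Vcam1, Krt18, and Krt8, in EAr for Dcdc2 and Sema5a, and in SA for Sox9. It was lowest in SpD for 7 markers, in SA for Sema5a and Krt18, and in LAr for Lcn2. With all 31 animals, Krt8 (q = 0.000331) and Havcr1 (q = 0.00054) were again DE, and Sema5a (q = 0.0251) and Vcam1 (q = 0.02) were the other markers under 0.05. In experiment 2 alone, no marker was DE by limma, 6 had an unadjusted p under 0.05, and 5 passed q under 0.05 (Krt8, Sema5a, Sox9, Havcr1, and Dcdc2). The shares of all genes in the fits of 31 animals and of experiment 2 are not given here.

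**Figure D1:**
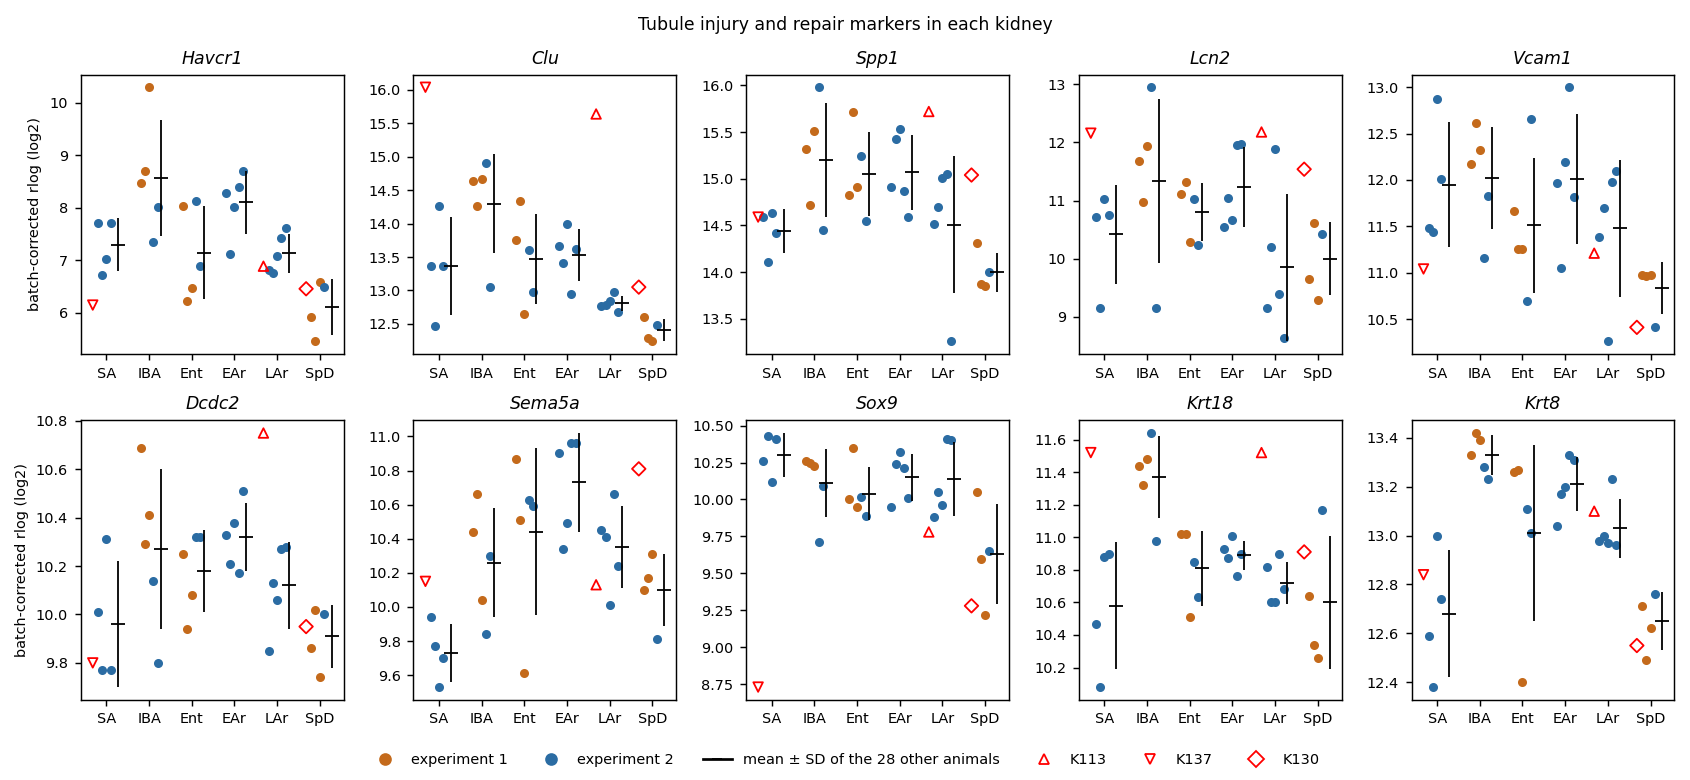
Batch-corrected rlog values (log2) of the 10 markers in each of the 31 kidneys, with a panel for each gene and the 6 states along the horizontal axis. Filled points are animals of experiment 1 or 2, black bars are the mean ± SD of the 28 animals without K113, K137, and K130, and open red symbols are those 3 animals; every SpD point of Havcr1, Clu, Vcam1, and Krt8 lies below every IBA point.

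In what follows, values are listed by animal in 1 order. In SA they are K138, K139, K140, and K141, in IBA K1, K4, K7, K104, and K171, and in Ent K2, K5, K8, K155, and K167. In EAr they are K154, K156, K157, K158, and K165, in LAr K109, K111, K112, K115, and K116, and in SpD K3, K6, K9, K84, and K130. The first 3 animals of IBA, Ent, and SpD are those of experiment 1, and K137 and K113 are described later.

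Havcr1 encodes a membrane receptor with which injured proximal tubule cells take up the remains of dying neighbors. It stood at 7.72, 6.73, 7.02, and 7.71 in SA and at 8.48, 8.71, 10.3, 7.35, and 8.02 in IBA. In Ent it was 8.04, 6.22, 6.48, 8.14, and 6.89, and in EAr 8.29, 7.13, 8.01, 8.4, and 8.71. In LAr the values were 6.82, 6.76, 7.08, 7.42, and 7.61, and in SpD 5.92, 5.46, 6.58, 6.49, and 6.46. The SpD animals were all below the lowest animal of SA, IBA, EAr, and LAr and overlapped with Ent. Among the animals of the table, only IBA and EAr had at least 4 at 7 or more, the level of the expression filter. Havcr1 is thus in the table through states where it is high. Its calls across states, in pairs with IBA, and in hibernation against active are not independent of the filter. K7 (IBA) was 28.7-fold above K6 (SpD), the widest range of the 10 markers in the 29 animals. The order of the means was SpD (6.18 ± 0.48, SD), LAr (7.14 ± 0.37), Ent (7.15 ± 0.89), SA (7.3 ± 0.5), EAr (8.11 ± 0.6), and IBA (8.57 ± 1.1), and neighbors in this order overlapped except SpD and LAr. The call across states was lost by a small margin when any of 7 animals was left out, namely K1 (q = 0.0017), K4 (0.0011), K7 (0.0011), K130 (0.0014), K3 (0.0012), K6 (0.0016), or K9 (0.0013).

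Lcn2 encodes a secreted protein that binds iron-carrying siderophores. Its values were 10.72, 9.16, 11.02, and 10.76 in SA and 11.68, 10.98, 11.94, 12.95, and 9.15 in IBA. Ent animals had 11.11, 11.32, 10.29, 11.03, and 10.23, and EAr animals 10.55, 11.04, 10.67, 11.96, and 11.98. LAr animals had 9.15, 10.2, 11.89, 9.39, and 8.63, and SpD animals 9.65, 10.62, 9.29, 10.42, and 11.54. All states overlapped, and the means were in the order LAr, SpD, SA, Ent, EAr, and IBA. The SD within a state reached 1.41 in IBA (mean 11.34) and 1.27 in LAr (mean 9.85). In IBA alone, K104 at 12.95 was the highest and K171 at 9.15 among the lowest of all 29 animals.

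Clu encodes a secreted chaperone. It measured 13.37, 12.47, 14.26, and 13.37 in SA and 14.63, 14.27, 14.66, 14.91, and 13.05 in IBA. It measured 13.76, 14.34, 12.65, 13.61, and 12.97 in Ent and 13.66, 13.41, 14.0, 12.95, and 13.62 in EAr. It measured 12.76, 12.78, 12.84, 12.98, and 12.68 in LAr and 12.61, 12.29, 12.25, 12.48, and 13.05 in SpD. Every IBA animal was above every LAr and SpD animal, although K171 (IBA) and K130 (SpD) are both 13.05 after rounding. The means rose from SpD (12.53 ± 0.32) through LAr (12.81 ± 0.11), SA (13.37 ± 0.73), Ent (13.47 ± 0.67), and EAr (13.53 ± 0.39) to IBA (14.3 ± 0.74), with overlap between all neighbors. The 5 LAr animals lay close together, and K113, the highest LAr animal at 15.64, is not among them.

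Spp1 encodes osteopontin, a secreted phosphoprotein that binds integrins and CD44. In SA it was 14.59, 14.11, 14.63, and 14.42, and in IBA 15.32, 14.72, 15.51, 15.98, and 14.45. Ent values were 14.83, 15.72, 14.91, 15.24, and 14.55, and EAr values 14.91, 15.43, 15.53, 14.87, and 14.59. LAr values were 14.52, 14.7, 15.01, 15.05, and 13.26, and SpD values 14.31, 13.87, 13.85, 14.0, and 15.04. All states overlapped, with means in the order SpD (14.21 ± 0.5), SA, LAr, Ent, EAr, and IBA (15.2 ± 0.61). K130 was the highest SpD animal, and without it the q across states was 0.0141 in place of 0.0502.

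Krt8 and Krt18 encode the type II and type I keratins that pair in the filaments of simple epithelia. Krt8 was 12.59, 12.38, 13.0, and 12.74 in SA and 13.33, 13.42, 13.39, 13.28, and 13.23 in IBA. In Ent it was 13.26, 13.27, 12.4, 13.11, and 13.01, and in EAr 13.04, 13.17, 13.2, 13.33, and 13.31. In LAr it was 12.98, 13.0, 12.97, 13.23, and 12.96, and in SpD 12.71, 12.49, 12.62, 12.76, and 12.55. Each IBA animal was above every SA and SpD animal, and each EAr animal too, while K8 was far below the other Ent animals. The LAr animals lay above SpD but overlapped with SA at K140. The means were in the order SpD, SA, Ent, LAr, EAr, and IBA, with overlap between neighbors. The IBA animals had an SD of 0.08 (mean 13.33), so that Krt8 varied less within IBA than any other marker. The call across states held in each of the analyses without 1 animal.

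Krt18 was 10.47, 10.08, 10.88, and 10.9 in SA and 11.44, 11.32, 11.48, 11.64, and 10.98 in IBA. In Ent it was 11.02, 11.02, 10.51, 10.85, and 10.63, and in EAr 10.93, 10.87, 11.01, 10.76, and 10.9. In LAr it was 10.82, 10.6, 10.6, 10.9, and 10.68, and in SpD 10.64, 10.34, 10.26, 11.17, and 10.91. All IBA animals were above all SA and LAr animals, and K84 of SpD lay within the IBA range. The means ran from 10.58 ± 0.39 in SA and 10.66 ± 0.38 in SpD through LAr, Ent, and EAr to 11.37 ± 0.25 in IBA (q across states 0.00489), with overlap between neighbors.

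Vcam1 encodes an adhesion molecule of the immunoglobulin family that binds integrins of leukocytes. Its SA values were 11.48, 11.44, 12.87, and 12.01, and its IBA values 12.17, 12.61, 12.32, 11.16, and 11.83. Its Ent values were 11.67, 11.25, 11.26, 10.69, and 12.66, and its EAr values 11.97, 11.05, 12.19, 13.0, and 11.82. Its LAr values were 11.38, 11.7, 10.26, 11.98, and 12.1, and its SpD values 10.97, 10.96, 10.97, 10.41, and 10.41. All SpD animals lay below all SA, IBA, and EAr animals, and the first 3 of SpD were within 0.01 of each other. The means were in the order SpD (10.74 ± 0.3), LAr (11.48 ± 0.74), Ent, SA, EAr, and IBA (12.02 ± 0.55), and neighbors overlapped. K130 was among the lowest in SpD, and without it the q across states was 0.08 in place of 0.0143.

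Dcdc2 encodes a microtubule-binding protein of the primary cilium. It was 10.01, 9.77, 10.31, and 9.77 in SA and 10.69, 10.29, 10.41, 10.14, and 9.8 in IBA. Ent gave 10.25, 9.94, 10.08, 10.32, and 10.32, and EAr 10.33, 10.21, 10.38, 10.17, and 10.51. LAr gave 9.85, 10.13, 10.06, 10.27, and 10.28, and SpD 9.86, 10.02, 9.74, 10, and 9.95. EAr was above SpD without overlap. The means were in the order SpD, SA, LAr, Ent, IBA, and EAr, with overlap between neighbors and a span of 0.4. The q across states (0.0471) passed 0.05 when no animal was left out but not without any one of 19 of the 29 animals, among them K9 (q = 0.1) and K130 (0.083).

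Sema5a encodes a membrane semaphorin, a guidance molecule. SA animals had 9.94, 9.77, 9.53, and 9.7, and IBA animals 10.44, 10.66, 10.04, 9.84, and 10.3. Ent animals had 10.87, 10.51, 9.61, 10.63, and 10.59, and EAr animals 10.9, 10.34, 10.49, 10.96, and 10.96. LAr animals had 10.45, 10.41, 10.01, 10.66, and 10.24, and SpD animals 10.1, 10.17, 10.31, 9.81, and 10.81. Its order differed from that of the other markers, since all SA animals lay below all EAr and LAr animals and the means rose from SA (9.73 ± 0.17) through SpD (10.24 ± 0.37), IBA (10.26 ± 0.32), LAr (10.35 ± 0.24), and Ent (10.44 ± 0.49) to EAr (10.73 ± 0.29). Neighbors in this order overlapped.

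Sox9 was 10.26, 10.43, 10.12, and 10.41 in SA and 10.26, 10.25, 10.23, 9.71, and 10.09 in IBA. In Ent it was 10, 10.35, 9.95, 10.02, and 9.89, and in EAr 9.95, 10.24, 10.32, 10.21, and 10.01. In LAr it was 9.88, 10.05, 9.96, 10.41, and 10.4, and in SpD 10.05, 9.6, 9.22, 9.65, and 9.28. Only SA and SpD did not overlap. The means were in the order SpD (9.56 ± 0.33), Ent (10.04 ± 0.18), IBA, LAr, EAr, and SA (10.3 ± 0.15), and neighbors overlapped. With all 31 animals, that is, with K113 and K137 added together, the q across states was 0.165 in place of 0.00186.

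SpD and IBA compare the kidney after the hibernation season with that of the warm phase between torpor bouts, and 7 markers passed q under 0.05. All 10 markers had a lower fitted level in SpD, with a median log2 difference of -0.85 against -0.01 over all genes. Of all genes, 1.25% were DE in this pair, and 11.9% passed q under 0.05, 5.42% with a lower level in SpD. Havcr1 (log2 difference -2.39 ± 0.37, SE, q = 0.000255, a 5.24-fold lower level) and Krt8 (-0.70 ± 0.12, q = 0.000514) were DE, and Clu (-1.77 ± 0.33, q = 0.00108) just missed the threshold. For Havcr1, only IBA and EAr met the expression filter of the table, and every SpD animal was below its level. EAr by itself would have kept the gene, but it was kept only through states where it is high. This difference is thus not counted as independent of the filter. Krt18 (-0.71 ± 0.16, q = 0.00593), Vcam1 (-1.27 ± 0.31, q = 0.00941), Sox9 (-0.55 ± 0.13, q = 0.00956), and Spp1 (-0.99 ± 0.32, q = 0.0461) passed 0.05. Lcn2 (-1.03 ± 0.61), Dcdc2 (-0.35 ± 0.12), and Sema5a (-0.02 ± 0.19) did not. Havcr1, Clu, Vcam1, and Krt8 were lower in every SpD animal than in every IBA animal, as were 3.31% of all genes.

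Both experiments held IBA and SpD animals, 3 of each state in experiment 1 and 2 of each in experiment 2. The SpD animals of experiment 2 were K84 and K130, and K130 stood apart from its group. In experiment 1 the median difference of the 10 markers was -1.14 and in experiment 2 it was -0.55. For Havcr1 it was -2.78 ± 0.38 and -1.33 ± 0.49, for Clu -2.15 ± 0.38 and -1.32 ± 0.53, for Krt8 -0.72 ± 0.22 and -0.64 ± 0.15, and for Vcam1 -1.32 ± 0.13 and -1.48 ± 0.57. Krt18 was -1.0 and -0.28 and Lcn2 was -1.76 and -0.1, a difference between experiments that was not tested, and Sema5a was -0.09 and 0.13. No marker was DE in either experiment alone (9 and 5 had an unadjusted p under 0.05 in limma). Havcr1, Clu, Krt18, and Vcam1 passed 0.05 in experiment 1. In experiment 2 only Krt8 did (q = 0.0189), and Havcr1 (q = 0.105), Clu (0.136), Vcam1 (0.12), and Krt18 (0.505) did not. When SpD and IBA were fitted without the other states, no marker was DE (8 had an unadjusted p under 0.05 in limma) and Havcr1, Clu, Vcam1, and Krt8 passed 0.05. The shares of all genes in fits of 1 experiment or of 2 states are not given here, for this pair or those that follow. These counts therefore cannot be set against all genes. Without K130, Clu was DE too (-1.92, q = 0.000838) and Krt8 no longer was (-0.65, q = 0.00143). With all 31 animals, Sox9 (q = 0.131) and Spp1 (q = 0.0758) no longer passed 0.05. Without K7 the Havcr1 difference was -2.03 (q = 0.0012), and without K3 or K6 its q was 0.001 or 0.0012. The DE call of Krt8 was lost without any one of the 5 IBA animals or of K130, K3, K6, and K9, with q between 0.001 and 0.002. The call of Spp1 at 0.05 was lost without any one of 16 animals, with q up to 0.14 (without K104).

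IBA and SA compare the warm kidney between torpor bouts with that of summer. No marker was DE by limma (8 had an unadjusted p under 0.05), against 3.15% of all genes. Krt8 (0.68 ± 0.14, q = 0.00143), Krt18 (0.88 ± 0.19, q = 0.00216), and Havcr1 (1.31 ± 0.44, q = 0.0326) were higher in IBA at q under 0.05, a level that 22.9% of all genes passed, 10.4% with a higher level in IBA. The median of the 10 markers was 0.73 against 0.03 over all genes. Havcr1 lost its call without K7 (q = 0.056), K138 (0.052), K139 (0.077), or K140 (0.095). In experiment 2 alone, with 2 IBA animals, the differences were 0.63 for Krt8 (q = 0.00501), 0.74 for Krt18 (q = 0.0243), and 0.51 for Havcr1 (q = 0.419). Krt18 no longer passed with all 31 animals (q = 0.059). All 3 calls were lost when IBA and SA were fitted without the other states (Krt8 0.66, q = 0.067; Krt18 0.78, q = 0.17; Havcr1 0.64, q = 0.53), and Havcr1 also lost its call without the term for sex.

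IBA and LAr compare completed with ongoing rewarming. No marker was DE by limma (5 had an unadjusted p under 0.05), against 1.43% of all genes. Clu (1.42 ± 0.36, q = 0.0101), Krt18 (0.74 ± 0.18, q = 0.00753), and Havcr1 (1.40 ± 0.42, q = 0.0219) were higher in IBA at q under 0.05, which 18% of all genes passed, 9.93% with a higher level in IBA. The median of the markers was 0.54 and that of all genes -0.01. Clu lost its call without K104 (q = 0.072). The Clu difference was 0.97 ± 0.58 (q = 0.315) with all 31 animals, and Krt18 then had a q of 0.0931. In experiment 2 alone the differences were 1.25 for Clu (q = 0.0946), 0.6 for Krt18 (q = 0.0796), and 0.65 for Havcr1 (q = 0.346). No marker was called when IBA and LAr were fitted without the other states (Clu 1.16, Krt18 0.61, Havcr1 0.86, with 3 markers at an unadjusted p under 0.05 in limma), and Havcr1 was not called without the term for sex.

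Ent and IBA compare the start of the next torpor bout with the preceding warm hours. No marker was DE by limma (4 had an unadjusted p under 0.05), against 0.746% of all genes. Havcr1 (-1.42 ± 0.37, q = 0.0151) and Krt18 (-0.56 ± 0.16, q = 0.023) were lower in Ent at q under 0.05, which 13.1% of all genes passed, 7.61% with a lower level in Ent. The median of the markers was -0.41 and that of all genes -0.01. Havcr1 was -1.85 ± 0.38 in experiment 1 and -0.29 ± 0.49 in experiment 2, and Krt18 was -0.56 ± 0.17 and -0.58 ± 0.24. With all 31 animals, Havcr1 (q = 0.0233) passed 0.05 and Krt18 (q = 0.0932) did not. No marker was called in limma in experiment 1, in experiment 2, or when Ent and IBA were fitted without the other states, where 5, 1, and 2 markers had an unadjusted p under 0.05. Without K167, Havcr1 had a q of 0.053 and Krt18 of 0.078, and Krt18 also lost its call without K8 (0.058), K1 (0.069), K104 (0.062), or K7 (0.052).

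The cold interval from Ent to EAr and the first part of rewarming, EAr to LAr, gave no call at either level. For EAr/Ent no marker had an unadjusted p under 0.05 in limma, the median was 0.18, and 0.132% of all genes were DE and 0.257% passed 0.05. For LAr/EAr all 10 markers had a lower fitted level in LAr (median -0.36, all genes 0), and Lcn2 (-1.38 ± 0.62, q = 0.564), Havcr1 (-0.83 ± 0.37, q = 0.567), and Clu (-0.69 ± 0.33, q = 0.598) had an unadjusted p under 0.05, with 0.295% of all genes DE and 0.575% past 0.05.

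SA and SpD are the active states before and after the season. No marker was DE by limma (5 had an unadjusted p under 0.05), against 0.0544% of all genes. Sox9 (0.88 ± 0.16, q = 0.00333) and Vcam1 (1.33 ± 0.37, q = 0.025) were higher in SA at q under 0.05, which 10.5% of all genes passed, 5.47% with a higher level in SA. The median of the 10 markers was 0.12. In experiment 2 alone the differences were 0.84 for Sox9 (q = 0.00409) and 1.54 for Vcam1 (q = 0.0282). Sox9 had a q of 0.0347 without K130 and of 0.234 with all 31 animals. Vcam1 lost its call without K130 (q = 0.16), K140 (0.078), or K141 (0.063) and with all 31 animals (0.0794).

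Taking the 4 hibernation states against the 2 active states, all 10 markers had a higher fitted level in hibernation (median 0.45, all genes 0). Krt8 (0.49 ± 0.08, q = 3.4e-05) was DE, as were 9.73% of all genes. At q under 0.05, which 33.4% of all genes passed, 16.6% with a higher level in hibernation, Havcr1 (1.0 ± 0.24, q = 0.00227), Sema5a (0.46 ± 0.12, q = 0.00499), Dcdc2 (0.28 ± 0.08, q = 0.00683), Krt18 (0.32 ± 0.10, q = 0.0172), Spp1 (0.63 ± 0.20, q = 0.0202), and Clu (0.58 ± 0.21, q = 0.0351) were higher too. Without K139, Clu (q = 0.12), Krt18 (0.072), and Spp1 (0.057) lost their calls, and Clu also lost its call without K138 (0.066), K6 (0.062), or K9 (0.072) and with all 31 animals (0.36), with which Krt18 (0.124) was lost too. Krt8 kept its call in all 31 animals (q = 3.33e-05) and in experiment 2 alone (0.00023), where Havcr1, Sema5a, and Dcdc2 were the other markers past 0.05. Havcr1 met the expression filter only in IBA and EAr, both hibernation states, so its difference here is not independent of the filter. In the same comparison, 5 of 7 endothelium genes, 4 of 7 fibroblast genes, 3 of 7 thick limb and distal tubule genes, 4 of 14 medulla and collecting duct genes, and 6 of 20 proximal tubule genes were lower in hibernation at q under 0.05 and 1, the proximal tubule gene Slc7a9, was higher. The medians of these lists were -0.31, -0.55, -0.49, -0.22, and -0.14, and their part in the marker differences was not tested.

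Between females and males, no marker was called at either level by limma, and 0.0233% of all genes were DE and 0.218% passed 0.05. Havcr1 (-0.69 ± 0.22, q = 0.495), Vcam1 (-0.65 ± 0.19, q = 0.381), and Sema5a (-0.26 ± 0.11, q = 0.742) had an unadjusted p under 0.05, each with a lower fitted level in females.

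**Figure D2:**
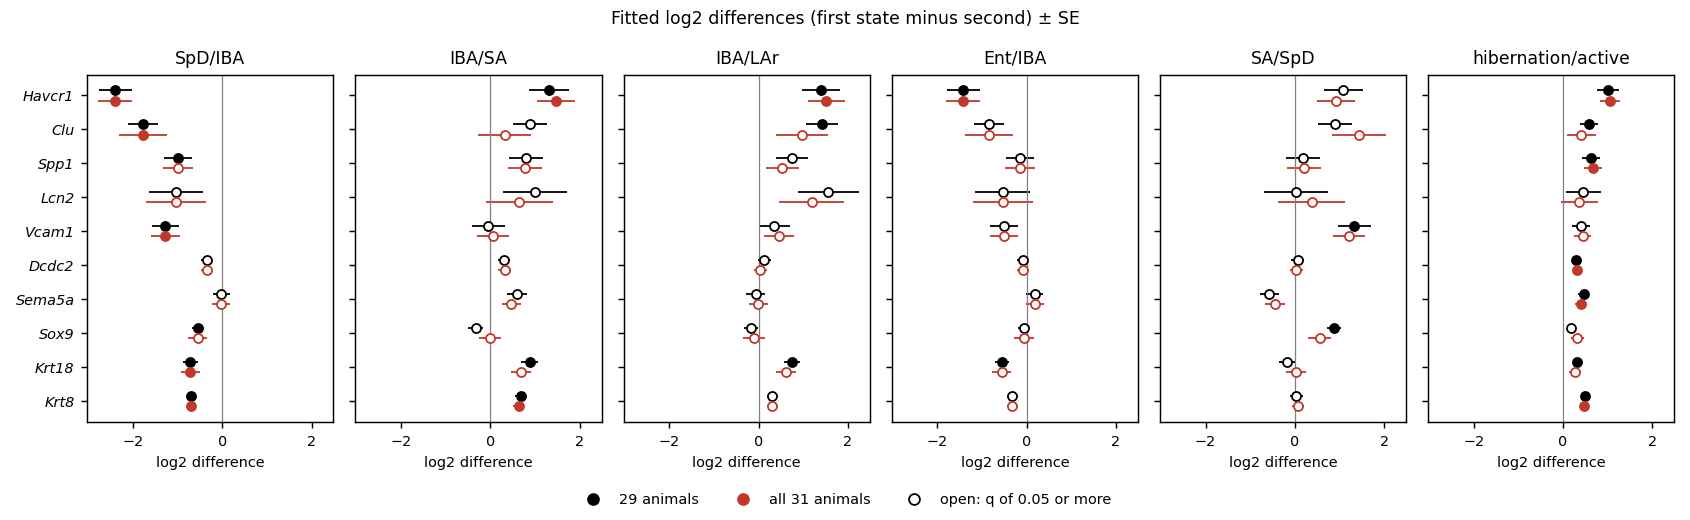
Fitted log2 differences (points) with their SE (bars) of the 10 markers in 5 pairs of states and in hibernation against the active states; the first state named is the one above 0 when it is higher. Black is the fit to 29 animals and red that to all 31, filled points have q under 0.05, and the 10 points of SpD/IBA lie at or left of 0.

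The IBA animal K171 was the lowest of the 5 for Clu (13.05), Spp1 (14.45), Lcn2 (9.15), Dcdc2 (9.8), Krt18 (10.98), and Krt8 (13.23). Without it, all 10 markers passed q under 0.05 across states and 3 were DE (Clu, Havcr1, and Krt8). The number past 0.05 was then 9 in SpD/IBA, 7 in IBA/SA, 5 in IBA/LAr, and 3 in Ent/IBA. K171 was chosen after its values were seen, and leaving out the lowest animal raises the IBA means of the markers just listed in advance. These counts are thus no further support, and the shares of all genes in that run are not given here. K104 was the highest IBA animal for Clu (14.91), Spp1 (15.98), Lcn2 (12.95), and Krt18 (11.64) and the lowest for Havcr1 (7.35), Vcam1 (11.16), Sema5a (9.84), and Sox9 (9.71).

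The lists of tubule segments moved with some of these differences. The mean of the 20 proximal tubule genes was lowest in IBA, at 13.93 (13.53 to 14.25), against 14.63 (14.53 to 14.81) in SA, 14.18 in Ent, 14.38 in EAr, 14.27 in LAr, and 14.43 in SpD, in the 28 animals without K113, K137, and K130. Of these 20 genes, 11 were lower in IBA than in SA at q under 0.05 and none higher (median -0.75), and 1, the amino acid transporter Slc7a8, was DE. In either direction, 22.9% of all genes passed 0.05 in this pair. In SA/SpD, 6 were higher in SA (median 0.74) in the fit of 29 animals, which holds K130 with its proximal tubule mean of 13.03. Aqp1 was higher in SpD than in IBA, and Slc27a2 was lower in IBA than in LAr. Among the IBA animals, the proximal tubule mean was 13.53 in K104, 13.59 in K7, 14.13 in K4, 14.16 in K1, and 14.25 in K171, so that K104 and K171, the extremes for Clu, Spp1, and Lcn2, were the extremes here in the opposite order. The mean of the 14 medulla and collecting duct genes was 12.13 in K104 and 10.96 in K171 and K7. By state it was 11.46 in IBA, 11.42 in SA, 11.35 in Ent, 11.29 in EAr, 11.12 in LAr, and 11.7 in SpD, the state with the lowest level of 7 markers. The part of the tubule segments in the fragments in these differences was not tested.

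**Figure D3:**
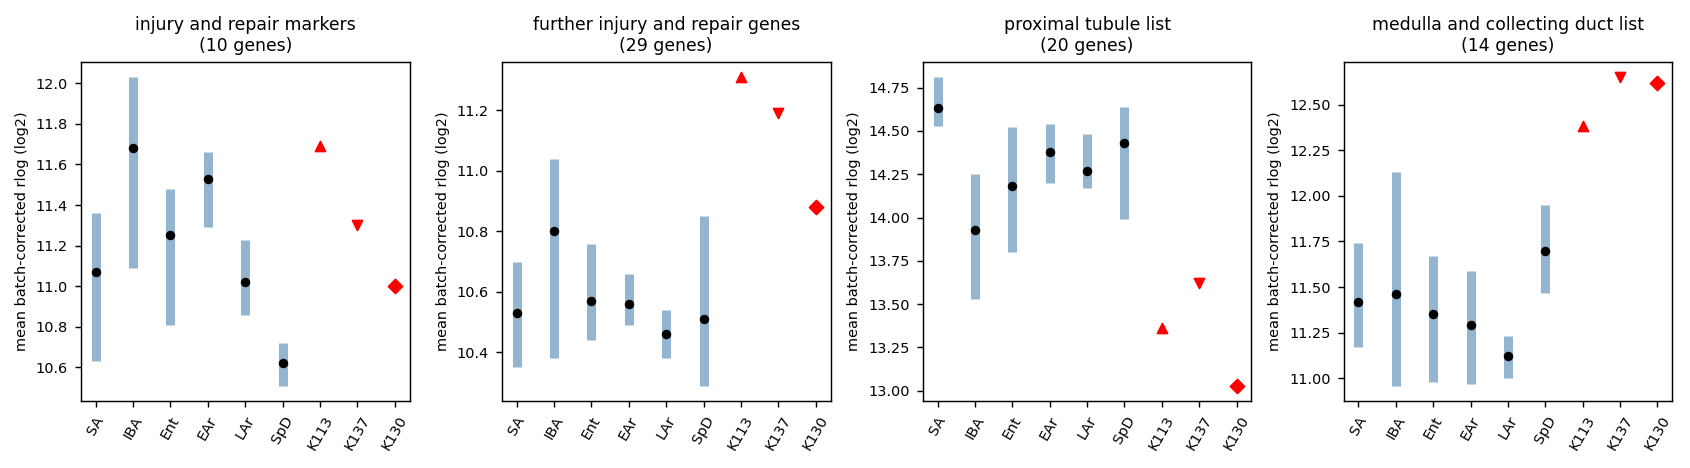
Mean batch-corrected rlog (log2) over the genes of 4 lists, with black points for the mean of each state, blue bars for the lowest to the highest animal (28 animals), and red symbols for K113, K137, and K130. The markers are highest in IBA and lowest in SpD, the proximal tubule list is lowest in IBA, and the 3 animals shown apart have low proximal tubule and high medullary means.

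A list of 40 further injury and repair genes, of which 29 were measured, was described in the same way. Across states, 5 of the 29 were DE, where 9.34% of all genes were, and 13 passed q under 0.05, a share near the 46.1% of all genes. The DE genes were Myc (q = 2.8e-06), a growth transcription factor, Lgals3 (8.2e-05), which encodes galectin-3, Tnfrsf12a (0.00011), the receptor of TWEAK, Itgb6 (0.00056), an integrin subunit that activates TGF-beta, and Hbegf (0.00057), a ligand of the EGF receptor. In IBA/SA, 10 were higher in IBA (Anxa2, Itgb6, Lgals3, Myc, Pax2, S100a10, S100a11, S100a6, Sox4, and Tnfrsf12a) and 2 were lower (Cdkn1a and Il18), with a median of 0.37. Of all genes, 10.4% were higher in IBA than in SA at q under 0.05. In SpD/IBA, 6 were lower in SpD (Itgb6, Lgals3, Myc, S100a10, Timp1, and Tnfrsf12a) and none higher by limma at q under 0.05, with a median of -0.08. At that level, 5.42% of all genes were lower in SpD. Tnfrsf12a was 10.7 ± 0.56 in IBA, 9.61 ± 0.34 in SA, 9.51 ± 0.21 in Ent, and 9.12 ± 0.28 in SpD, Itgb6 was 11.01 ± 0.27 in IBA and between 10.11 and 10.54 in the other states. Lgals3 was 11.55 ± 0.35 in IBA, 10.77 ± 0.09 in SA, 10.8 ± 0.21 in SpD, and between 11.26 and 11.38 in Ent, EAr, and LAr.

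From EAr to LAr, Hbegf (1.12, q = 0.00097) and Myc (1.31, q = 1.2e-05) rose, and the median of the 29 genes was -0.09. In Ent/IBA, Gdf15, Itgb6, S100a10, and Tnfrsf12a were lower in Ent, and in IBA/LAr, Anxa1, Itgb6, S100a6, and Tnfrsf12a were higher and Myc lower in IBA. At q under 0.05, 7.61% of all genes were lower in Ent than in IBA, and 9.93% were higher in IBA than in LAr. In SA/SpD, Prom1 and S100a11 were lower in SA. In hibernation against the active states, Lgals3, Myc, S100a10, and Tnfrsf12a were higher and Cdkn1a and Gdf15 lower, with a median of 0.05. Of all genes, 16.6% were higher in hibernation at q under 0.05.

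Receptors and partners of the marker proteins changed little. Of the 12 measured, 2 passed q under 0.05 across states, where 46.1% of all genes did. In each pair at most 2 passed, with a median of 0.08 in IBA/SA and -0.06 in SpD/IBA. Lrp8, a receptor of the LDL receptor family that can bind clusterin, was higher in IBA than in SA, LAr, Ent, and SpD, Dsp was higher in IBA than in SA, and Jup was lower in Ent than in IBA. Plxnb3, which encodes a plexin that binds semaphorins, was higher in SpD than in IBA and SA, and in hibernation Itgav was higher and Itga9 lower than in the active states.

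Markers of cell types that could be in the fragments were followed as well. Across states at q under 0.05, 9 of 20 proximal tubule, 6 of 14 medulla and collecting duct, 2 of 7 thick limb and distal tubule, 2 of 6 macrophage, 3 of 7 endothelium, 2 of 7 fibroblast, none of 3 urothelium, and 1 of 5 podocyte genes passed in limma, against 46.1% of all genes. The 3 urothelium genes had no unadjusted p under 0.05 either. None of the 5 genes of neutrophils, cells that are another source of Lcn2 RNA, is in the table. The table leaves out genes of low expression, so this does not show that neutrophils were absent. In SpD/IBA none of the macrophage, endothelium, fibroblast, urothelium, or podocyte genes was called by limma (3, 3, 0, 0, and 2 had an unadjusted p under 0.05, and the medians were -0.39, 0.28, 0.25, 0.6, and 0.34), while Scnn1a and Scnn1g of the collecting duct and Kcnj1 of the thick limb were higher in SpD, with medians of 0.41 and 0.67 for their lists. In IBA/LAr, Cd74 and Csf1r of macrophages, Cdh5 of endothelium, and Slc14a2 and Slc5a3 of the medulla were higher in IBA. The mean of the 6 macrophage genes was 8.96 (8.59 to 9.72) in IBA, 9.09 (8.72 to 9.26) in SA, and 8.62 (8.26 to 9.11) in SpD. The mean of the 3 urothelium genes varied most, from 5.66 in an Ent animal to 9.86 in a SpD animal.

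Agreement between animals was measured on what remained of each marker after its state mean, sex, and experiment were fitted, in the 28 animals without K113, K137, and K130. Pearson's r of these residuals was positive in 33 of the 45 pairs of markers and negative in 12, with a median of 0.16 and a range from -0.32 (Spp1 and Vcam1) to 0.80 (Clu and Krt18). In a 2-sided permutation test within states, 7 pairs passed an adjusted p under 0.05 over the 45 pairs, and 10 had an unadjusted p under 0.05. They joined Clu, Krt18, Krt8, Spp1, and Lcn2. Havcr1, Vcam1, Sox9, Sema5a, and Dcdc2 were in no such pair. The share of agreeing pairs among all genes was not computed. The count of 7 therefore does not show that the markers agree more than other genes do.

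Clu and Krt18 agreed most closely (r = 0.80, unadjusted permutation p = 1e-05, the smallest that the permutations can give, adjusted p = 0.00045, Spearman's rho = 0.82, p = 2e-05). For Clu and Spp1, r was 0.67 (adjusted permutation p = 0.0009, rho = 0.69, adjusted p = 0.0074). For Krt18 and Krt8, r was 0.68 (adjusted permutation p = 0.0062, rho = 0.74, adjusted p = 0.022). For Clu and Krt8, r was 0.67 (adjusted permutation p = 0.0062, rho = 0.62, adjusted p = 0.035). These 4 pairs passed in each of the 28 analyses without 1 animal, by rho as well as by r in the full set, and without the 2 animals farthest from the median of the first gene their r was 0.76, 0.61, 0.66, and 0.62, in the order given. The other 3 pairs were weaker. Clu and Lcn2 (r = 0.58, adjusted permutation p = 0.021) did not pass by rho (0.45, adjusted p = 0.14), had r = 0.44 without K171 and K8, and lost the call without K139, K171, or K8. Spp1 and Krt18 (r = 0.48, adjusted permutation p = 0.035, rho = 0.49, adjusted p = 0.11) lost the call in 8 of the 28 analyses without 1 animal, and Lcn2 and Krt8 (r = 0.39, adjusted permutation p = 0.036, rho = 0.42, adjusted p = 0.14) in 11.

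In the 19 animals of experiment 2 no pair passed the adjusted permutation test and 7 had an unadjusted p under 0.05, although r was similar for Clu and Krt18 (0.86, adjusted p = 0.097), Clu and Spp1 (0.66, adjusted p = 0.14), and Krt18 and Krt8 (0.68, adjusted p = 0.24). Experiment 1 has 9 animals in 3 states, and its pairs were not tested alone. With all 31 animals, Clu and Krt18 had an r of 0.89 and Clu and Lcn2 of 0.7, whereas Clu and Krt8 had 0.45 (adjusted permutation p = 0.075) and Lcn2 and Krt8 0.31 (adjusted permutation p = 0.1). With K130 alone added, Lcn2 and Krt8 was the one pair of the 7 that no longer passed (r = 0.29, adjusted permutation p = 0.22). In the 28 animals Havcr1 had an r of at most 0.24 with any other marker (Krt18). Its r with Sema5a was 0.22, and it was 0.35 without K7 and K155 and 0.52 in experiment 2. Its r with Clu was 0.06 (unadjusted permutation p = 0.83), although both genes were highest in IBA and lowest in SpD.

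**Figure D4:**
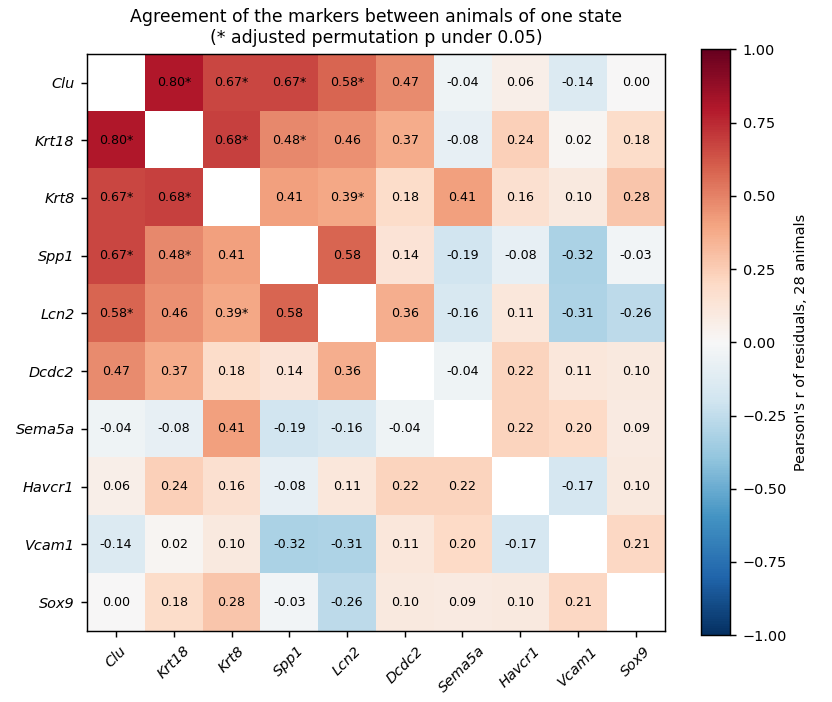
Pearson's r of the residuals of each pair of markers in 28 animals after state, sex, and experiment were fitted (red positive, blue negative). Asterisks mark the 7 pairs with an adjusted permutation p under 0.05, all of them among Clu, Krt18, Krt8, Spp1, and Lcn2 in the upper left.

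The genes most like each marker over the same 28 animals were named by Pearson's r of the values themselves, which include the differences between states, with no test. They were Parp3 (0.89) and Scn3b (0.83) for Havcr1, Gabrp (0.88) and Itgb6 (0.85) for Clu, Plp2 (0.9) and Itgb6 (0.88) for Krt18, and Mvp (0.87) and Mgat4b (0.85) for Krt8. Itgb6 was thus among the closest genes of both Clu and Krt18. For Spp1 they were S100a6 (0.78) and Fam3c (0.74), for Lcn2 Timp1 (0.73) and S100a6 (0.71), and for Vcam1 Etv1 (0.83) and Adgrg6 (0.77). For Dcdc2 they were Eml4 (0.74) and Fam84b (0.73), for Sema5a Pcsk5 (0.85) and Dysf (0.85), and for Sox9 Me2 (0.62) and Zmpste24 (0.6), the loosest of the 10. With the other 3 animals included, Scn3b fell from 0.83 to 0.44 for Havcr1 and Gabrp rose from 0.88 to 0.92 for Clu.

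K113, K137, and K130 are given apart, each against the other animals of its state and with no test, since each is 1 animal. In K113 (LAr), 5 markers were above the 5 other LAr animals. Clu was 15.64 (others 12.68 to 12.98), Lcn2 12.18 (8.63 to 11.89), Spp1 15.72 (13.26 to 15.05), Krt18 11.52 (10.6 to 10.9), and Dcdc2 10.75 (9.85 to 10.28). Sox9 was below them at 9.78 (9.88 to 10.41), and Havcr1 (6.89), Vcam1 (11.21), Sema5a (10.13), and Krt8 (13.1) were within their range.

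In K137 (SA), Clu was 16.04 (others 12.47 to 14.26), the highest of all 31 animals, with K113 the next. Lcn2 (12.16, others 9.16 to 11.02), Krt18 (11.52, others 10.08 to 10.9), and Sema5a (10.15, others 9.53 to 9.94) were above the 4 other SA animals. Sox9 (8.73, others 10.12 to 10.43), Havcr1 (6.15, others 6.73 to 7.72), and Vcam1 (11.04, others 11.44 to 12.87) were below them, and Spp1 (14.59), Dcdc2 (9.8), and Krt8 (12.84) were within. Sox9 of K137 was the lowest of the 31 animals.

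In K130 (SpD), Spp1 (15.04, others 13.85 to 14.31), Lcn2 (11.54, others 9.29 to 10.62), Clu (13.05, others 12.25 to 12.61), and Sema5a (10.81, others 9.81 to 10.31) were above the 4 other SpD animals. Vcam1 was level with K84 at the bottom of the group (both 10.41 after rounding), and Havcr1 (6.46), Sox9 (9.28), Krt18 (10.91), Krt8 (12.55), and Dcdc2 (9.95) were within. Clu and Lcn2 were thus the markers above the group in all 3 animals, and in none of the 3 was Havcr1 above its group.

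These counts stand beside a wide departure of the whole table. In K113, 35.6% of all genes were above and 37.2% below the other animals of the state, in K137 33.9% and 29.5%, and in K130 32.7% and 28.4%, where the markers had 50% and 10%, 40% and 30%, and 40% and 10%. Of the 29 further injury genes, 21 were above the group in K113, 22 in K137, and 12 in K130. The proximal tubule mean was 13.36 in K113 (others 14.17 to 14.48), 13.62 in K137 (14.53 to 14.81), and 13.03 in K130 (13.99 to 14.64). The 3 measured urothelium genes were all above the group in K113, 2 were in K137, and none in K130, and 6, 5, and 7 of the 7 endothelium genes were above it. Macrophage genes were above the group for 1 of 6 in K113 and for none in K137 and K130. Of the 5 podocyte genes, 5 in K113, 4 in K137, and 5 in K130 were below the group. The part of the segment makeup of these fragments in the marker values was not tested.

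**Figure D5:**
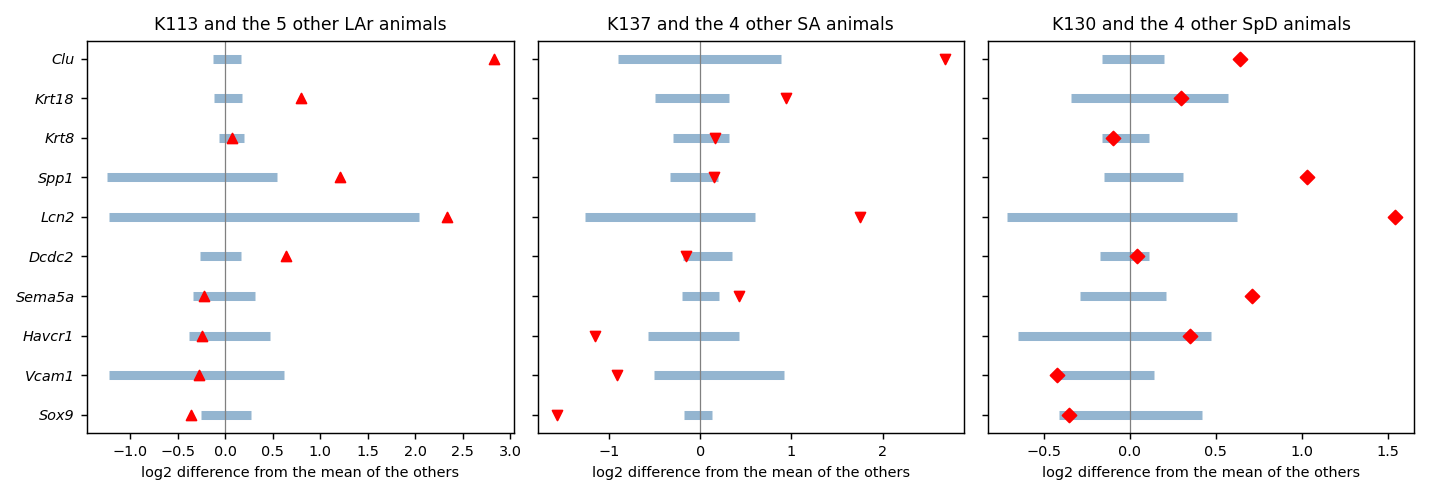
Each marker in K113 (LAr), K137 (SA), and K130 (SpD) as the log2 difference from the mean of the other animals of the same state (red symbols), with blue bars from the lowest to the highest of those animals. Clu and Lcn2 lie to the right of the bar in all 3 panels, while Havcr1 and Sox9 lie within or to the left of it.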

How the data were processed

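The table holds 31 of the kidneys that the authors measured by RNA-Seq of polyadenylated RNA. According to the methods and labels, the authors used cutadapt for trimming and HISAT2 to take out mitochondrial reads, quantified transcripts with Salmon on the HiC_Itri_2 genome, summed them to genes with tximport, kept genes with an rlog value of at least 7 in 4 of 5 animals of a group, and corrected DESeq2 rlog values for experiment with limma. The deposited values are these batch-corrected rlog values on the log2 scale. Counts are not in the table, so depth is unknown and precision rests on the spread between animals. The correction removed the mean difference between experiments. The main fit counts that degree of freedom through its term for experiment, whereas the alternative with no such term does not.

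The authors' DE test was run on counts. Here the deposited values of 29 animals were fitted with limma 3.58.1 (in R 4.3.3), with state, sex, and experiment as terms and an intensity trend, and p-values were adjusted over 12863 genes. Agreement was tested with 100000 2-sided permutations of residuals within states. The script was tested on simulated data. Alternatives were all 31 animals, no term for sex or experiment, each experiment alone, a minimum mean level of 8, no trend, robust variance, median centering, the 2 groups compared only, Spearman's rho, and each animal left out.

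The markers, the lists, and the tests were chosen with earlier results of these data known. The 11 lists of other genes (injury and repair, receptors and partners, proximal tubule, medulla and collecting duct, thick limb and distal tubule, macrophage, neutrophil, endothelium, fibroblast, urothelium, and podocyte) were written from general knowledge. The text names all markers, up to 4 genes of lowest q of a list where a result needs them, the genes of counts of 5 or fewer, and the 2 genes most like each marker. Some genes of the cell type lists are not reported here by name. K171 and K104 were singled out after their values were seen. No sequences are printed, and positions are not given because the RefSeq assembly (mIctTri1.hap1) is not that of the authors. The plots were made in Python 3.11.15 (matplotlib 3.10.9).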

Additional observations from a re-analysis of the deposited data

Results flagged for a closer look

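Among the 60 groups formed by the 10 markers and 6 states in all 31 animals, 5 held an animal far from the others by Dixon's test, where chance flags about 1 in 20 groups. In LAr, K113 was high for Clu, at 15.64 with the next animal at 12.98, and for Krt18, at 11.52 with the next at 10.9. In SA, K137 was low for Sox9, at 8.73 with the next animal at 10.12. In Ent, K8 was low for Sema5a, at 9.61 with the next at 10.51, and K5 was high for Sox9, at 10.35 with the next at 10.02. K113 and K137 were not among the 29 tested animals, whereas K8 and K5 were.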

How the results depend on the processing

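No marker called in the report changed direction in any alternative run. Taking each called marker under each alternative, 1122 values kept their side of the threshold and 105 lost the call. Across states, 2 markers were DE, 8 at a threshold of 0.05, none (0) in experiment 2 only, 1 among genes with a mean of at least 8 (Havcr1 is not among them), 1 with no term for sex, and 1 without K130. At 0.05 there were 4 with all 31 animals and 5 in experiment 2. With a threshold of 0.05 in place of 0.001, the counts were 2 in SA/SpD, 3 in IBA/SA, 2 in Ent/IBA, 3 in IBA/LAr, 7 in SpD/IBA, and 7 in hibernation against active. IBA/SA had 1 DE marker with no term for experiment. SpD/IBA had 0 in experiment 2, 1 among genes with a mean of at least 8, and 0 when SpD and IBA were fitted by themselves, and at 0.05 it had 1 in experiment 2 and 4 with SpD and IBA by themselves. Of the 7 agreeing pairs, 0 passed in experiment 2 and 4 by Spearman's rho. With 1 animal left out, the counts ran from 1 to 3 across states, from 7 to 10 across states at 0.05, from 0 to 1 in IBA/SA and in IBA/LAr, from 0 to 3 in SpD/IBA, from 6 to 9 in SpD/IBA at 0.05, from 1 to 2 in hibernation against active, and from 4 to 10 for the pairs. Experiment 2 and the fits of 2 groups have fewer animals, and the cause of the other changes was not tested. The shares of all genes in these alternative runs are not given here. No paired analysis was possible because animals are numbered once and no number is shared between groups. The unknown depth leaves the counting error of single values unknown.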
